A study of Drosophila melanogaster with 2 samples.

Results

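This account covers 8 genes of the insulin and TOR (target of rapamycin) pathway of Drosophila melanogaster, InR, chico, Akt, foxo, Tor, S6k, Thor and rictor, and the places where the tagged protein CG10654-GFP was found on chromatin around them. The 8 were chosen by name, as core components of the pathway, out of 18164 annotated genes; the rule uses no measured value, although earlier results of these data were known when it was written. Chromatin immunoprecipitation with sequencing (ChIP-seq) used an antibody against GFP on whole embryos, 0 to 24 h old and of both sexes. The embryos came from a transgenic line, CG10654-GFP, in which GFP is joined to the C-terminal end of CG10654, and sonication gave fragments of 200 to 800 bp. There was 1 group of 2 biological replicates and no second condition, so every statement below compares places in the genome and none compares treatments. A whole embryo mixes all tissues, and this collection mixes all stages of embryogenesis, so each value is an average over them.

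Insulin-like peptides bind the receptor InR, which acts through the adaptor chico and phosphoinositide 3-kinase (PI3K) to turn on the kinase Akt. Akt phosphorylates the transcription factor foxo and keeps it out of the nucleus. When insulin signalling is low, foxo enters the nucleus and raises transcription of targets that include InR and Thor, the fly 4E-BP that holds back translation. The kinase Tor works in a pair of complexes: the one with raptor senses amino acids and phosphorylates S6k and Thor, and the one with rictor phosphorylates Akt. Together these genes set growth and body size.

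The authors deposited lists of peaks, not reads. A candidate list was made from each replicate and from the pooled reads of both, and a shorter list was kept by the irreproducible discovery rate (IDR), which compares the order of candidates between replicates. On the dm6 genome build there were 27219 pooled candidates and 4117 IDR peaks, while replicate 1 gave 23253 candidates and replicate 2 gave 30000. The signal value is the authors' enrichment per peak, with no absolute scale, no replicate error and an unknown read depth. Across the IDR list it ran from 99.3 to 2484, with a median of 164. The replicate lists differed in level, with a median of 31.5 in replicate 1 and 15.7 in replicate 2. Raw values of the replicates therefore cannot be compared directly. Ranks count from 1 for the strongest peak of a list. A gene's window here is its annotated span and 2 kb on either side, and a promoter summit lies no more than 500 bp from a transcription start site (TSS) of the annotation. Distances are negative upstream of the TSS.

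The sequences below show what the summits of these genes look like, since they differ widely in base composition. Each is the dm6 reference sequence of the summit and 50 bp on either side, read 5′ to 3′ on the gene's strand. In the first, capitals mark the arms of an inverted repeat, 9 bases each and 6 bases apart. In the others, capitals mark the longest run made only of A and T. For Thor, whose summit lies in the transcribed leader, the part of the peak upstream of the gene is shown.
InR, intronic summit, chr3R:21590767-21590867, minus strand: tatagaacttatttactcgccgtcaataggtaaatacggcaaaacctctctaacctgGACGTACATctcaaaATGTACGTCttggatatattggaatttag
InR, promoter summit, chr3R:21619410-21619510, minus strand: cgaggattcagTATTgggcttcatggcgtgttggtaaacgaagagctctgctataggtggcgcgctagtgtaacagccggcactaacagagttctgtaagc
Akt, upstream summit, chr3R:16097757-16097857, plus strand: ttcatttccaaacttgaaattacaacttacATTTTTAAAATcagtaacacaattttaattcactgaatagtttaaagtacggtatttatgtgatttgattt
foxo, stronger promoter summit, chr3R:14056435-14056535, plus strand: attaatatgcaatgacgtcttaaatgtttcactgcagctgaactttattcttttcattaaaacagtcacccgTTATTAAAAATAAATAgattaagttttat
foxo, weaker promoter summit, chr3R:14056634-14056734, plus strand: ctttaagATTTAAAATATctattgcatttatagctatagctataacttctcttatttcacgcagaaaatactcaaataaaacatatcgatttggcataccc
foxo, intronic summit, chr3R:14077158-14077258, plus strand: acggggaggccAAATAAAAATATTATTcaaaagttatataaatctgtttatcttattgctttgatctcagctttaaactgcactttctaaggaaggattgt
Tor, promoter summit, chr2L:13004177-13004277, plus strand: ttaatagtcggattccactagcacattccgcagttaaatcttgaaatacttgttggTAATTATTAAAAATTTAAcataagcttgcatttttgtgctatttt
Thor, upstream part of the promoter peak, chr2L:3478269-3478433, plus strand: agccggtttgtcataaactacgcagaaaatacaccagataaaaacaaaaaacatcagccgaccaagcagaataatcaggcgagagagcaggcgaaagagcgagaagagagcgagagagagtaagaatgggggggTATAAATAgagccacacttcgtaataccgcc

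CG10654-GFP had an IDR summit in the window of 5 of the 8 genes, InR, Akt, foxo, Tor and Thor, and in none of the windows of chico, S6k and rictor. Such a summit was present for 30.9% of all annotated genes and 34.4% of protein-coding genes. Among the 10145 protein-coding genes with windows in the range of the 8, from 5179 to 53074 bp, it was 38.7%. That set is bounded by the range and is not matched in length. Window length matters because a longer window holds more summits: the median was 12924 bp for the 8 genes and 6166 bp for all protein-coding genes. In windows under 10 kb, 1 of the 2 members (Thor, not chico) had an IDR summit, beside 29.9% of protein-coding genes. From 10 to 20 kb it was 2 of 4 (Akt and Tor, not S6k and rictor), beside 47.3%. Over 20 kb it was both InR and foxo, beside 56.2%.

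At the promoter itself, 4 of the 8 genes had an IDR summit, InR, foxo, Tor and Thor, beside 16.3% of all genes and 19.8% of protein-coding genes. With any pooled candidate counted, all 8 had a promoter summit, beside 45.3% of all genes and 50.5% of protein-coding genes. The authors' pooled list holds background as well as peaks, so a candidate in it does not by itself show binding. The strongest promoter candidate ranged from 26.9 at rictor to 262 at Tor, with a median of 113, and the median over the 7048 protein-coding genes that had one was 75.2. In order of pooled signal the promoters stood as Tor (262), InR (205), foxo (181), Thor (135), Akt (92.1), S6k (57.5), chico (56.5) and rictor (26.9). The lists give no error for these values, so whether neighbours in that order differ, S6k and chico for example, cannot be told. For the 4 with an IDR promoter summit the median was 193, against 182 for all protein-coding genes that had one. Any annotated TSS of a gene counts, so a gene with many TSSs has more chances of a promoter summit. The shares were not matched for this. With 8 genes and 1 group, none of these shares was tested.

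**Figure D1:**
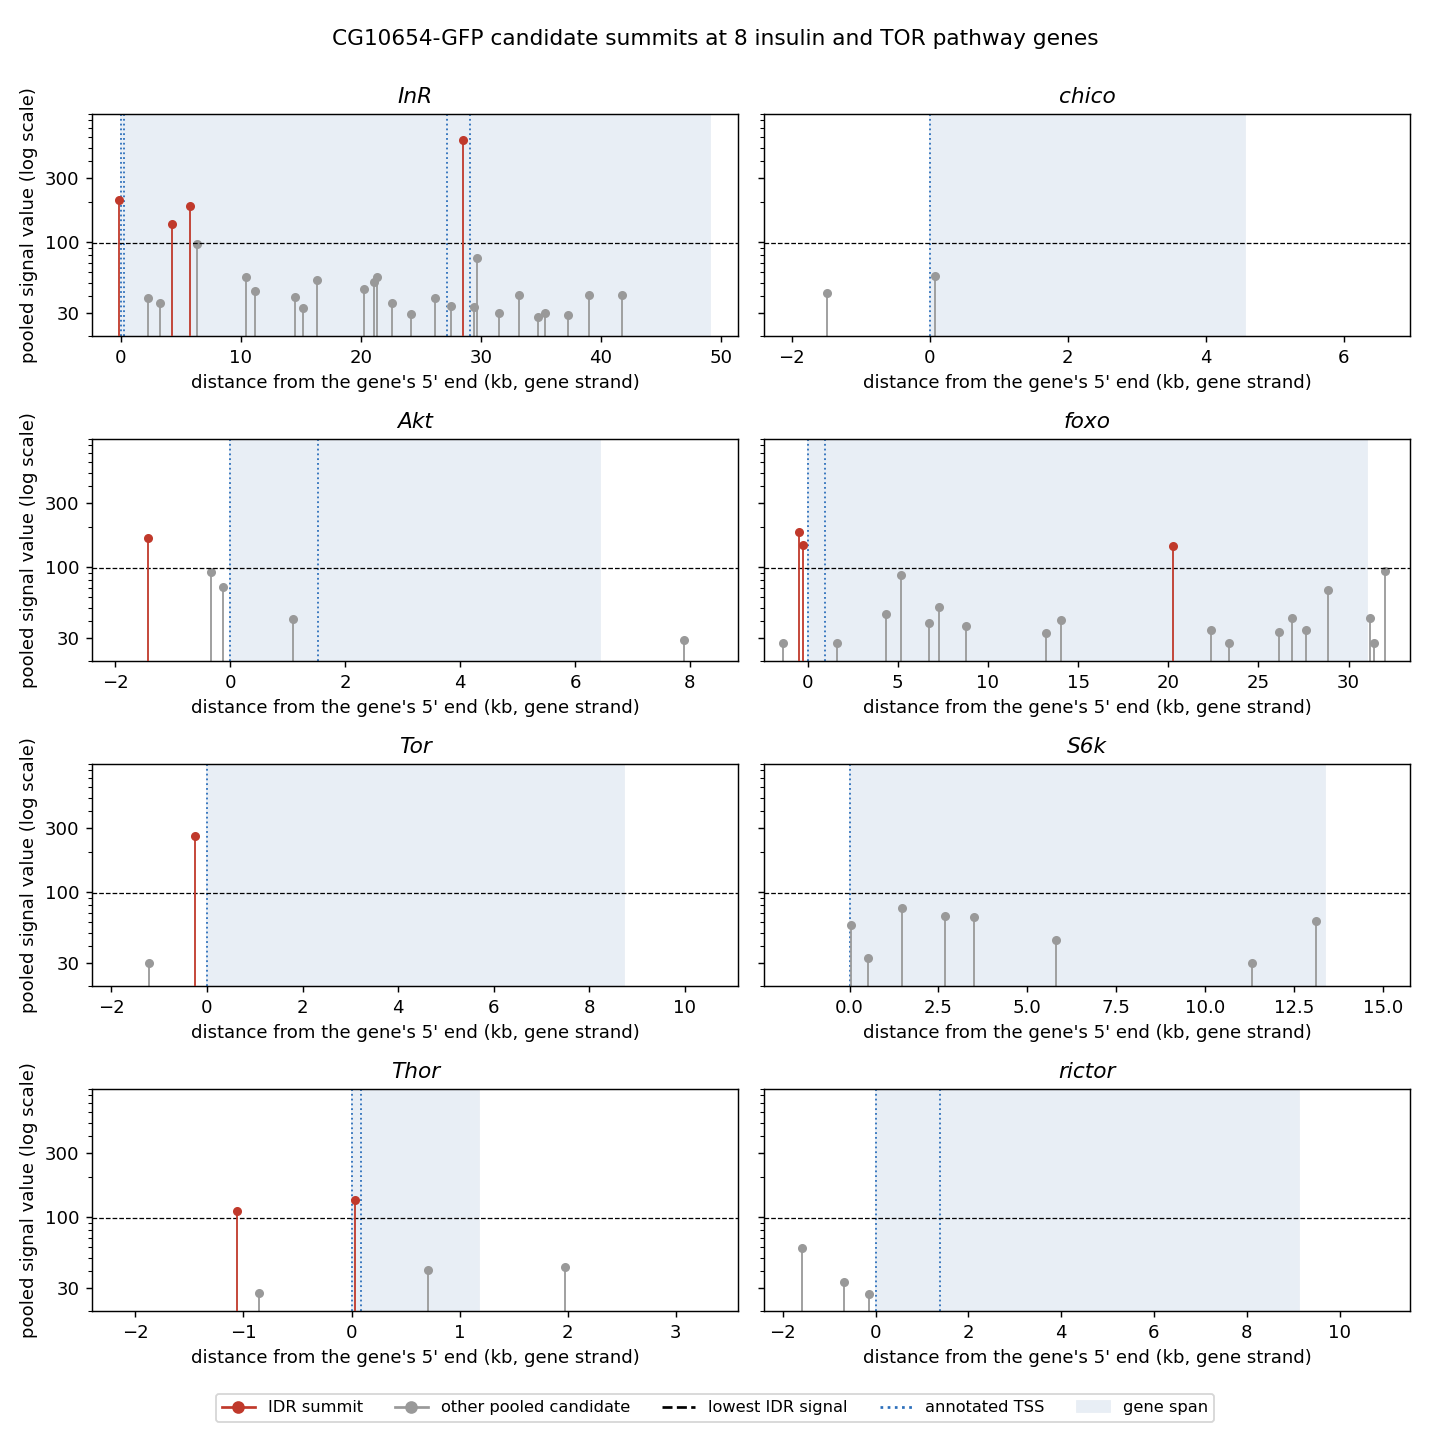
Pooled candidate summits across the 8 gene windows, by distance from the gene's 5′ end in kb (horizontal) and the authors' pooled signal value on a log scale (vertical); red marks IDR summits, grey the other candidates, dotted lines the annotated TSSs, shading the gene span and the dashed line the lowest IDR signal of 99.3. The highest summit, 571, lies inside InR, and chico, S6k and rictor have no red mark.

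InR, the single insulin receptor gene of the fly (FBgn0283499, 3R from 21570248 to 21619321, minus strand), had the strongest summit of the 8, with 4 IDR summits and 28 pooled candidates in its window. That was the most of the 8 within 2 kb, but with a margin of 5 kb foxo had 5 and InR 4. The highest lay inside the gene, in an intron, in a peak from 21590679 to 21590986 with its summit at 21590817. Its signal was 571 in the pooled reads, 379 in replicate 1 and 188 in replicate 2, and it ranked 152, 165 and 153 in the respective lists. Both replicates thus placed it near the same rank, and it was number 32 among the 1354 intronic summits of the IDR list. It stood 626 bp upstream of the InR start site at 21590191 and 1304 bp downstream of the one at 21592121, the pair of internal start sites of this gene, and therefore outside the promoter distance used here.

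The distal promoter of InR carried a weaker peak, from 21619265 to 21619654, with its summit 139 bp upstream of the outermost start site. Its signal was 205 in the pooled reads, 129 in replicate 1 and 77.8 in replicate 2. A further pair of IDR summits lay between the distal and the internal start sites. The one at 21613576 had a signal of 185 and replicate values of 113 and 66.7, and stood 5460 bp inside the gene from its nearest InR start site. The one at 21615079 had 135 in the pooled reads and replicate values of 84.5 and 57.3, and fell in an exon of the overlapping noncoding RNA gene lncRNA:CR44034, whose start site was 661 bp away. The intronic peak was thus far above the other three, which all had at most 205.

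At least as many IDR summits as at InR were found for 167 of 13945 protein-coding genes, InR included, or 1.20%, and for 9.94% of the 1298 with windows over 20 kb. A signal at least as high as its strongest summit was found in the windows of 290 protein-coding genes, or 2.08%. Just below the IDR list, an intronic candidate of InR at 21613017 reached 96.3 in the pooled reads, with 77.4 in replicate 1 and 28.1 in replicate 2.

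chico, the insulin receptor substrate that links InR to PI3K (FBgn0024248, 2L from 10242512 to 10247078, minus strand), had no IDR summit. It had 2 pooled candidates in its window. The one at the promoter, 77 bp downstream of the TSS, had a signal of 56.5 in the pooled reads, 34.5 in replicate 1 and 26.1 in replicate 2, and ranked 8497 of the pooled list. The other, with 41.8, lay in a coding exon of the neighbouring gene bsk, the Jun kinase.

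Akt, the kinase that passes the signal on to foxo and the TOR branch (FBgn0010379, 3R from 16099228 to 16105670, plus strand), had 1 IDR summit, and it lay beside the gene and not at its promoter. The peak ran from 16097612 to 16098001, with its summit 1421 bp upstream of Akt. That position is inside an intron of the divergent neighbour Mhcl, a myosin heavy chain-like gene, 954 bp downstream of its TSS, which is the nearest one. Its signal was 164 in the pooled reads, 88.5 in replicate 1 and 70.5 in replicate 2, with a rank of 2784 in replicate 1 and 1443 in replicate 2.

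The start sites of Akt and Mhcl also had candidates between them. The stronger, 334 bp upstream of Akt and 133 bp upstream of Mhcl, had 92.1 in the pooled reads and ranked 4516, just short of the 4117 IDR peaks. It had 72.9 in replicate 1 and no summit within 100 bp in replicate 2. The weaker, 131 bp upstream of Akt, had a pooled signal of 71.3. In replicate 2 the strongest summit within 500 bp of an Akt TSS had 26.4, against 72.9 in replicate 1. By rank these stood in the top 21.7% of the replicate 2 list and the top 15.5% of the replicate 1 list.

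foxo, the transcription factor that Akt restrains (FBgn0038197, 3R from 14056945 to 14087978, plus strand), had 3 IDR summits among 21 pooled candidates. A pair stood 460 and 261 bp upstream of its first TSS, only 199 bp apart, and their peak intervals shared 191 bp, so they are not separate measurements of the promoter. The outer one had 181 in the pooled reads, 121 in replicate 1 and 61.4 in replicate 2. The inner one had 146, 98.7 and 43.3 in the same order. In both replicates the outer summit was the higher.

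The third foxo summit lay deep in an intron, 19289 bp downstream of the nearest foxo TSS, in a peak from 14077013 to 14077402. Its signal was 143 in the pooled reads, 86.6 in replicate 1 and 54.0 in replicate 2. The nearest TSS of any gene was that of Npc2b, 12309 bp away. In all, 405 protein-coding genes, foxo included, had 3 or more IDR summits, or 2.90%, as did 17.9% of those with windows over 20 kb. Just short of the list, a candidate beyond the 3′ end of foxo and 573 bp upstream of Npc2b had 93.9, and an intronic one had 86.9.

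Tor, the kinase at the centre of both TOR complexes (named mTor in the annotation, FBgn0021796, 2L from 13004480 to 13013197, plus strand), had the strongest promoter summit of the 8 and otherwise only 1 weak candidate. The peak ran from 13004138 to 13004322, a width of 185 bp. Its signal was 262 in the pooled reads, 171 in replicate 1 and 92.4 in replicate 2, and the ranks were 900, 935 and 856. Both replicates placed it among their stronger peaks. The summit lay between divergent genes, 253 bp upstream of Tor and 120 bp upstream of Vha68-1, which encodes a subunit of the proton pump V-ATPase. The signal therefore cannot be assigned to one of these promoters. Among the 2164 IDR promoter summits it ranked 573, next to those nearest to CAP (262.4) and CG8306 (262.04).

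S6k, the ribosomal protein S6 kinase that Tor activates (FBgn0283472, 3L from 5797549 to 5810931, minus strand), had 8 pooled candidates and none in the IDR list. Their signal ran from 29.6 to 76.3. The highest was intronic, 1468 bp downstream of the TSS, with 53.9 in replicate 1 and 18.1 in replicate 2. The promoter candidate, 46 bp downstream of the TSS and also within 500 bp of the start of kri, had 57.5 in the pooled reads, 33.3 in replicate 1 and 23.3 in replicate 2. S6k thus had several weak candidates, all below the lowest IDR signal, which cannot be told from background with these lists.

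Thor, the repressor of cap-dependent translation that Tor inactivates (FBgn0261560, 2L from 3478434 to 3479612, plus strand), is the shortest of the 8 genes and had 2 IDR summits. The one at the promoter was in a peak from 3478269 to 3478658, with its summit 30 bp downstream of the first TSS and 58 bp upstream of the second. Its signal was 135 in the pooled reads, 87.5 in replicate 1 and 45.9 in replicate 2. It was the only one of the 5 promoter summits of these genes that was not upstream of its nearest TSS.

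The second Thor summit stood 1057 bp upstream of the gene, in an exon of lncRNA:CR43928, 526 bp from the start of that RNA. It had the lowest signal of the 11 summits, 111 in the pooled reads, with 70.4 in replicate 1 and 30.4 in replicate 2. In all, 1395 of 13945 protein-coding genes, Thor included, had 2 or more IDR summits, as did 6.30% of those with windows under 10 kb.

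rictor, the subunit that defines the TOR complex acting on Akt (FBgn0031006, X from 19252111 to 19261240, minus strand), had the weakest promoter of the 8. Its candidate 147 bp upstream of the TSS, shared with the divergent gene Vav, had a signal of 26.9 and ranked 26936 of 27219. A candidate was found there in replicate 2, with 11.2, and none was found in replicate 1. The other candidates in its window lay at Vav, one of 33.1 near its TSS and one of 59.5 in its intron, 1585 bp upstream of rictor.

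All 11 IDR summits of these genes had a summit within 100 bp in each replicate's candidate list, at most 46 bp away in replicate 1 and 35 bp in replicate 2. The IDR list was made from these replicates, so this is a description and no independent check. Set against the strongest 4117 candidates of each replicate, all 11 were among those of replicate 1 and 10 among those of replicate 2. The exception was the upstream summit of Thor, which ranked 5323 in replicate 2 and 3761 in replicate 1. The shares of all IDR peaks with such matches and ranks are not given here. These counts therefore show nothing particular to these genes.

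**Figure D2:**
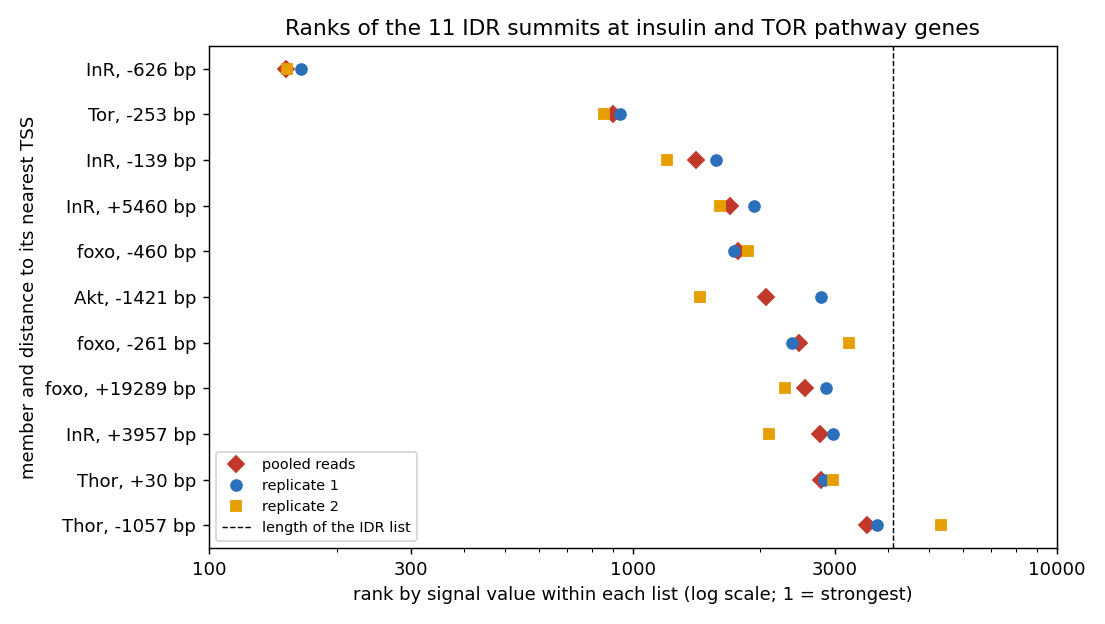
Rank by signal value, on a log scale with 1 the strongest, of each of the 11 IDR summits in the pooled list (diamonds), replicate 1 (circles) and replicate 2 (squares), labelled by gene and by distance to that gene's nearest TSS. The InR summit at -626 bp lies at 152 to 165 in all lists, and the Thor summit at -1057 bp passes the dashed line of 4117 in replicate 2 only.

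By position, 5 of the 11 summits were at promoters, 4 in introns and 2 in exons of noncoding RNA genes, and none was intergenic. In the IDR list as a whole, 52.6% were at promoters, 32.9% in introns, 0.972% in such other exons and 12.3% intergenic. Summits stood at 7.07 per 100 kb in the windows of the 8 genes, against 3.59 per 100 kb in all gene windows. The overlapping foxo promoter pair counts as 2 of the 11. All gene windows are not matched to the 8 in length or gene type. Without InR, which holds 4 of the 11, the other windows had 6.83 per 100 kb. This alternative was added after the data had been seen.

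The summit windows of these genes varied widely in base composition. Over 101 bp, median GC content was 33.7% in the 11 windows, 31.7% in all IDR windows and 44.6% in windows 300 bp away from IDR summits. The Akt window was the poorest in G and C at 22.8%, followed by the foxo promoter windows at 25.7% and 27.7% and the Tor window at 28.7%. The InR promoter window was the richest at 51.5%, a level reached by 4.03% of IDR windows. The Thor promoter window had 48.5%, reached by 6.73%. The promoter windows of InR and Thor were thus the 2 richest in G and C, and those of foxo and Tor were below the IDR median.

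The longest unbroken run of A and T, a measure chosen after the sequences had been seen, also varied between these windows. Its median was 11 bases in the 11 windows, 10 in all IDR windows and 7 in the windows 300 bp away. The run was longest at Tor with 18 bases, a length reached by 9.42% of IDR windows. It was 16 bases at the outer foxo promoter summit and at the intronic foxo summit. In the windows of the InR and Thor promoter summits it was only 4 and 5 bases. The run of 8 bases capitalised in the printed Thor sequence lies upstream of that Thor window.

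**Figure D3:**
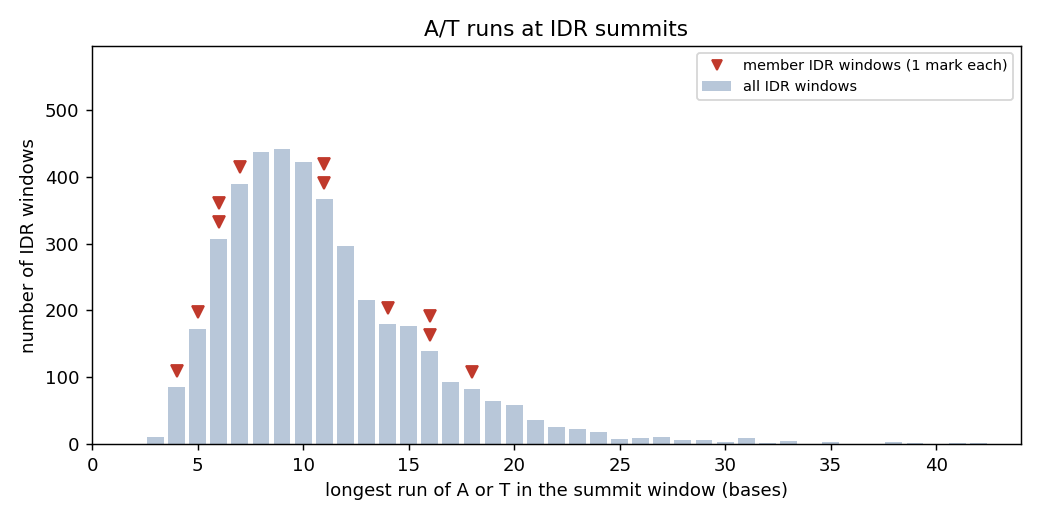
Number of IDR summit windows of 101 bp (vertical) by their longest run of A or T in bases (horizontal), for all 4117 IDR windows (bars), with 1 triangle for each of the 11 windows of the insulin and TOR pathway genes; a triangle's height only keeps it clear of the bars and of other triangles. The triangles run from 4 bases at the InR promoter to 18 at Tor, around a median of 11.

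Known sequence words were counted in the 11 windows. Each was searched on both strands, and the share of all IDR windows that hold it is given. The FOXO word TTGTTTAC was in 0 of 11 windows, against 1.85%, and the shorter forkhead word GTAAACA, which overlaps it, was in 0 against 3.91%. The DRE word TATCGATA (1.82%), the E-box CACGTG (0.680%), the Zelda word CAGGTAG (0.486%), the AP-1 word TGAGTCA (1.04%) and the M1BP word GGTCACACT (0.753%) were also in 0. The GAGA word GAGAG was in 1 window, the intronic one of InR (8.60%), CGATA, a part of the DRE word, was in 1 at foxo (16.7%), and GATAA was in 1 at foxo (24.2%). TATAAA was in 2, both at foxo (21.9%).

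With 100 bp on either side, TTGTTTAC and GTAAACA each appeared in 1 window, the one at the Thor promoter, against 3.25% and 6.90% of IDR windows. TATAAA was then in 6 of 11 windows (37.1%), CGATA in 4 (30.3%), GATAA in 4 (42.5%) and GAGAG in 3 (20.5%), and the DRE, E-box, Zelda, AP-1 and M1BP words were still in 0. The upstream part of the Thor peak printed above also holds repeats of GAGAG. A match is a string of letters and does not show that a factor binds there.

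The inverted repeat beside the InR intronic summit, also looked for after the sequences had been seen, had arms of at least 9 bases no more than 20 bases apart. Such a repeat was in 2 of the 11 windows, the second being the inner foxo promoter summit, in 3.18% of all IDR windows and in 1.48% of windows 300 bp away. The arm GACGTACAT of InR was in 1 of the 4117 IDR windows, its own.

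The rest of the pathway was described from a list of 66 further names, of which 65 matched a gene. Of these, 20 (30.8%) had an IDR promoter summit and 38 (58.5%) an IDR summit in the window, beside the 19.8% and 34.4% of protein-coding genes given above. Their median window was 8348 bp, and the median of their strongest pooled promoter signals was 84.9 over the 47 genes that had one, against 75.2. All 20 promoter summits lay upstream of the listed gene's TSS and had a match in both replicates, and 10 of them were also within 500 bp of another gene's TSS. The shares of all IDR promoter summits with these features are not given here. These counts therefore show nothing particular to the listed genes. Together with the 8 genes, 24 of 73 had an IDR promoter summit. Each group count of IDR promoter summits below stands beside the same 19.8% of protein-coding genes. The list was written with earlier results of these data known, and with 3 to 14 genes in a group no count was tested.

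At the ligand end, none of 10 ligand and binding protein genes had an IDR promoter summit. Of the 8 insulin-like peptide genes, 2 had a pooled promoter candidate, beside 50.5% of protein-coding genes. An IDR summit in the window was found for 1 of the 8, Ilp6, the peptide of the fat body. The share was 34.4% of protein-coding genes and 29.9% of those with windows under 10 kb. Ilp1, Ilp2, Ilp3 and Ilp4 are neighbours with overlapping windows, so they are not separate observations. ImpL2, a secreted protein that binds these peptides, had 2 IDR summits in its window. None of the 3 further adaptor genes at the receptor had an IDR promoter summit.

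At the PI3K step 4 of 6 genes had one. Pi3K21B, the regulatory subunit of PI3K, had a pooled signal of 326 at 46 bp upstream of its TSS, with 239 in replicate 1 and 79.1 in replicate 2. melt, a membrane protein that brings Tsc1 and foxo to the cell surface, had 290, with 181 and 105.

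All 4 genes of the group listed as acting with foxo had an IDR promoter summit, beside 19.8% of protein-coding genes. The kinase gene sgg, the fly GSK-3, had 432 at an internal start site, and Sik3, a salt-inducible kinase, had 189. The phosphoprotein-binding genes 14-3-3zeta and 14-3-3epsilon had 151 and 132. The last was nearer to CG7156, and the summit of 14-3-3zeta was shared with RpLP0-like.

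Between insulin and Tor, 4 of 11 genes of the TSC, Rheb and stress group had one. Sesn, a stress-induced inhibitor of the TOR complex, had 519, with 311 in replicate 1 and 204 in replicate 2, at a promoter shared with CG46429. SNF4Agamma, a subunit of AMP-activated kinase, had 210 at an internal start site. Rheb, the GTPase that activates Tor, had 179 at a summit nearer to CG2931. Of the 3 other subunit genes of the TOR complexes none had one: raptor had a pooled candidate of 27.5, Sin1 had 91.7 and Lst8 had none.

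Amino acid sensing at the lysosome gave 4 of 14 genes of the Rag, GATOR and Ragulator group. Lamtor3, a subunit of Ragulator, had the highest promoter signal of the whole list, 554, with 378 in replicate 1 and 177 in replicate 2, at a promoter shared with fws. Wdr24, a GATOR subunit, had 159 at a promoter shared with IntS11, and Iml1, the GATOR subunit that inhibits the pathway, had 140.

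Downstream, 3 of 11 genes had an IDR promoter summit. REPTOR, a transcription factor that carries out much of the response to loss of Tor activity, had 485, with 310 in replicate 1 and 179 in replicate 2. This summit lay at an internal start site of REPTOR. bmm, the triglyceride lipase brummer, had 292 at a summit nearer to Tdrd3. Of 3 amino acid transporter genes, 1 had one. The promoter signals of Lamtor3, Sesn, REPTOR, sgg, Pi3K21B, bmm and melt were above the highest of the 8 core genes, 262 at Tor. The list of 65 genes has more chances of a high value than the 8. The intronic summit of InR, 571, was above all of these promoter signals.

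**Figure D4:**
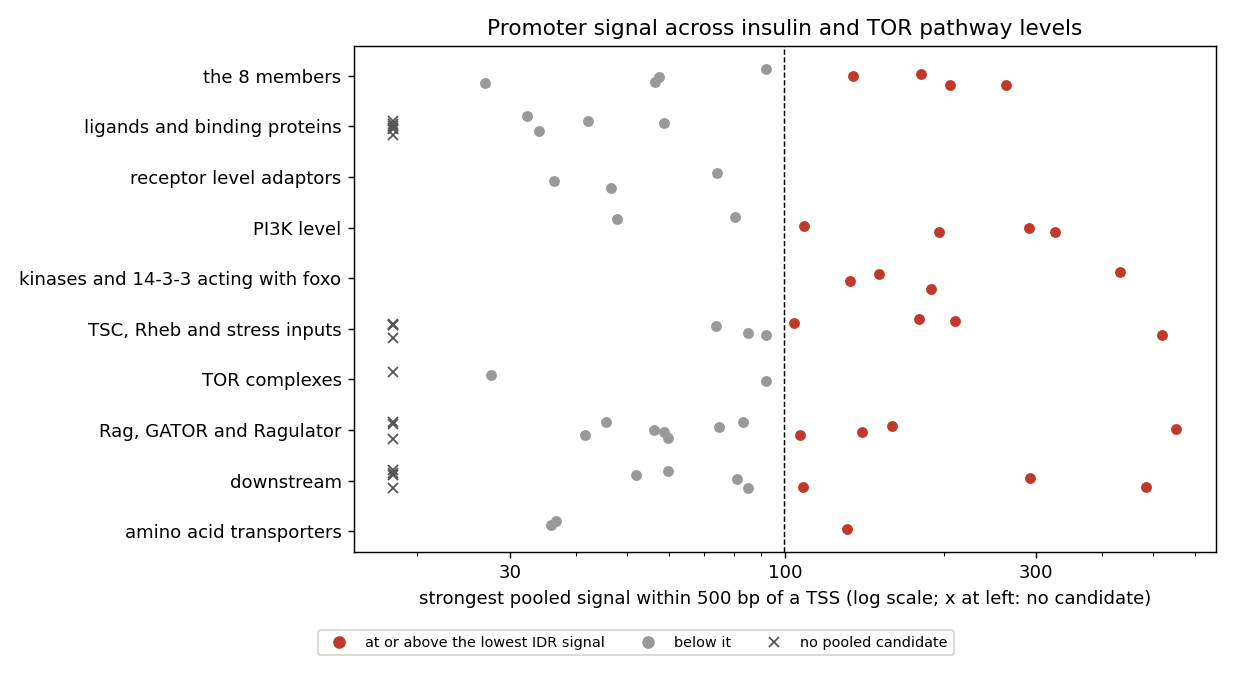
Strongest pooled signal within 500 bp of a TSS (horizontal, log scale) for the 8 genes and for the further 65, by pathway group; each point is 1 gene, red from the lowest IDR signal of 99.3 upward, grey below it, and crosses at the left have no pooled candidate. Ligands, receptor adaptors and TOR complex subunits have no red point, and all 4 kinase and 14-3-3 genes are red. The groups were listed with earlier results of these data known, and differences between them were not tested.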

How the data were processed

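Candidates were called by the authors per replicate and on pooled reads, each against a control library, and an IDR list was kept, per the file headers and descriptions. Field 7 of the deposited lists holds the signal value, an enrichment. The deposited −log10 q value (field 9) was not used for ranking. For the aligner and peak caller, names and versions were not given in the sources used here. Read depth is unknown, so no counting interval was possible. The list of replicate 2 held exactly 30000 entries. The control library and the dm3 lists were not analysed here.

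Summits were placed on dm6 (Ensembl release 115 genes) and matched between lists within 100 bp, and sequences were read from the RefSeq Release 6 genome. Gene symbols were matched exactly. Tor was matched by hand to mTor, because the RefSeq synonym also belongs to another gene, and FLCN had no match. The counting of summits in gene windows and at promoters was tested on simulated data with planted peaks. Nothing was tested between groups, since the samples form 1 group. The alternatives were margins, promoter distances, list lengths, peak intervals and each replicate's list alone.

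The members and lists were chosen with earlier results of these data known. Genes named are the 8 members, the 15 listed genes of highest IDR promoter signal (1 of them is not reported here), genes at or nearest to a member's summit, and the neighbours by rank of the strongest member promoter. Genes named outside that rule (bsk, Vav, kri, Ilp6, ImpL2, raptor, Sin1, Lst8, CG7992 and the genes that share a listed promoter) were chosen after their values were seen. Python 3.11.15, pandas 2.3.3, numpy 2.4.6 and matplotlib 3.10.9 were used.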

Additional observations from a re-analysis of the deposited data

How the results depend on the processing

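Without the 2 kb margin, 3 genes in place of 5 had an IDR summit (InR, foxo and Thor) and 5 summits in place of 11 were counted. With promoters of 250 bp in place of 500 bp, 2 genes in place of 4 had an IDR promoter summit (InR and Thor). With the stronger 2058 IDR peaks alone 6 summits were counted, and with the strongest 8234 pooled candidates 23. These follow from narrower windows and from shorter or longer lists. A margin of 5 kb gave 6 genes, adding rictor through a summit of 120 nearest to CG7992. With one replicate's strongest candidates in place of the IDR list, 5 genes had a summit in the window in either case, 4 or 5 had one at the promoter and 10 to 14 summits were counted. Replicate 1 alone added Akt. For none of these settings is the share of all genes given here, so these counts cannot be set beside the shares above. Matching within 50 or 250 bp left all 11 matched. Widening the sequence window from 50 to 100 bp on either side gave TATAAA in 6 windows in place of 2 (37.1% of IDR windows at that width), CGATA in 4 in place of 1 (30.3%), GATAA in 4 in place of 1 (42.5%) and GAGAG in 3 in place of 1 (20.5%). Weak candidates such as those of chico, S6k and rictor cannot be told from background with these lists.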

Other observations

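Just outside the 2 kb margin, foxo had a pair of IDR summits upstream of its first TSS that were stronger than any inside its window. The one 3346 bp upstream had a signal of 456, and the one 4579 bp upstream had 226, against 181 for the strongest promoter summit of foxo. With them foxo had 5 IDR summits and InR 4. They were seen when the margin was widened to 5 kb.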
